A study of Nicotiana benthamiana with 6 samples.

Results

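The unigenes annotated as cell cycle, histone and DNA replication genes were examined in leaves of *Nicotiana benthamiana*, a model plant for transient expression, that overexpressed the banana transcription factor gene *MaWRKY45* (overexpression) or carried the empty vector (mock). Unigenes are the non-redundant transcripts of the de novo assembly and stand for genes here. A unigene was included when its best protein match came from *Nicotiana* or *Solanum* and its UniProt name contained histone H, cyclin-A, cyclin-B, cyclin-D, cyclin-dependent kinase, cyclin-dependent protein kinase inhibitor, DNA replication licensing, DNA polymerase, proliferating cell nuclear antigen, transcription factor E2F, kinetochore or aurora. Of 167935 unigenes, 60 had such a name without a best protein match from *Nicotiana* or *Solanum* and were left out. The rule was met by 210. Among them, 42 are reverse transcriptases of transposable elements, taken in because their name contains DNA polymerase, and 4 carry a matching word but no role in the cycle that the name gives (calcyclin-binding protein, 2 cyclin-D-binding Myb-like factors and a polymerase-associated helicase). The other 164 hold 38 histone unigenes, 12 MCM licensing factors, 26 DNA polymerase subunits, 1 PCNA, 4 E2F factors, 35 A-, B- and D-type cyclins, 21 cyclin-dependent kinases (CDKs) or their subunits, 14 CDK inhibitors, 6 kinetochore proteins and 7 aurora kinases. The only histone H3 that the names gave is the centromeric form.

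Leaves of wild-type plants were infiltrated with *Agrobacterium tumefaciens* LBA4404. In the overexpression group (n = 3 libraries) the bacteria carried pCAMBIA2200 with *MaWRKY45* behind the constitutive CaMV35S promoter, and in the mock group (n = 3 libraries) they carried pCAMBIA2200 without it. Both groups were sampled 3 days after infiltration, and each library pooled the RNA of 3 plants. The transgene therefore came from transient delivery into whole leaves with bacteria present in both groups, and all cell types of the leaf contributed RNA. The total count per library lay between 12590186 and 13465854 in overexpression and between 12031310 and 14285138 in mock, and the 210 unigenes took 54119, 50324 and 43017 counts in overexpression 1, 2 and 3 against 40514, 46451 and 34673 in mock 1, 2 and 3. Of the unigenes whose protein match is a banana WRKY factor, c147189_g1_i1 held nearly all counts. It had 248, 332 and 267 TMM CPM (CPM, library-size-scaled counts, with edgeR's TMM normalization) in overexpression 1, 2 and 3, against 118, 58.2 and 131 TMM CPM in mock. Its UniProt match is a cauliflower mosaic virus protein, so part of the assembled transcript may be vector sequence that the mock also carries, and its level is no clean measure of the transgene. As a whole, overexpression 1 and 2 resembled each other more (Pearson r = 0.982 of log2 CPM across the tested unigenes) than either resembled overexpression 3 (r = 0.970 and 0.969).

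A dividing plant cell passes from G1 into DNA synthesis (S phase) when D-type cyclins with their CDK partners phosphorylate the retinoblastoma-related protein and so release E2F transcription factors. E2F targets include the MCM proteins, which form the replicative helicase, PCNA, the sliding clamp of the DNA polymerases, and several histone genes, whose products package the new DNA. A-type and B-type cyclins act later, from S phase to mitosis, together with aurora kinases and kinetochore proteins, while the plant CDK inhibitors of the KRP and SMR (SIAMESE-RELATED) families restrain the kinases. In *Arabidopsis*, SMR proteins are known for stopping division in favour of endoreduplication, the copying of DNA without mitosis. Mature leaf cells divide little, so many of these genes are normally low in expanded leaves.

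Overexpression was compared with mock by the quasi-likelihood test of edgeR, with the Benjamini-Hochberg (BH) adjustment over all 37201 tested unigenes, and a unigene was called when its adjusted p was under 0.05 and its fold change at least 2. Of the 210 unigenes, 114 had enough counts to be tested, 7 had no count in any library and 59 had fewer than 10 counts in all 6 libraries together. The test called 3 unigenes higher in overexpression, cyclin-D2-1 and 2 CDK inhibitors named SMR6, and none lower. The 3 are 2.63% of those tested, while 1.92% of all tested unigenes were called higher and 2.67% lower, 4.59% in either direction. At an unadjusted p under 0.05, 29 were higher and 5 lower (8.54% and 10.3% of all tested unigenes), and DESeq2 called 10 higher and 0 lower (1.52% and 2.49% of all unigenes to which it gave an adjusted p). Their median log2 fold change was 0.29, that of all tested unigenes -0.01, and 84 lay above 0 and 30 below (48.9% of all tested unigenes lay above 0). In these bulk libraries, more cells of a type and more RNA per cell cannot be told apart.

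The called D-type cyclin was cyclin-D2-1 (c77697_g1_i4), an activator of CDKs at the entry into the cycle. Its level was 87.0, 82.5 and 121 TMM CPM in overexpression 1, 2 and 3, against 28.4, 44.5 and 33.4 TMM CPM in mock 1, 2 and 3. All 3 overexpression libraries lay well above all mock libraries, with overexpression 3 the highest. The means were 96.8 ± 20.9 TMM CPM in overexpression and 35.4 ± 8.22 TMM CPM in mock (SD, n = 3 each), a log2 fold change of 1.45 ± 0.23 (SE, adjusted p = 0.00677 by edgeR with BH). The call held when any single library was dropped, with BH-adjusted edgeR p-values between 0.00167 and 0.0432. Per length, it had 48.1 FPKM in overexpression and 16.1 FPKM in mock. Cyclin-D3-1 c82637_g2_i1, at 35.2 FPKM, was above it in mock.

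The other 10 tested D-type cyclins did not move together. Cyclin-D3-2 (c67185_g1_i1) had 4.67, 4.39 and 4.28 TMM CPM in overexpression against 7.23, 8.64 and 6.20 TMM CPM in mock, with every overexpression library below every mock library, a log2 fold change of -0.73 (edgeR's BH-adjusted p = 0.133). A cyclin-D3-1 unigene (c82637_g2_i1) had a log2 fold change of -0.69 (edgeR's BH-adjusted p = 0.217), also without overlap of the groups. In the opposite direction, a cyclin-D3-3 unigene (c85227_g1_i2) had 5.55, 4.39 and 3.02 TMM CPM in overexpression against 1.61, 2.90 and 1.89 TMM CPM in mock, again without overlap (log2 fold change 1.01, edgeR's BH-adjusted p = 0.151). None of these 3 passed the test. The class median was a log2 fold change of 0.23.

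Among the SMR inhibitors that met the rule, all 6 tested unigenes had a log2 fold change above 0. In 4 of them the groups did not overlap, all higher in overexpression (11.3% of all tested unigenes were without overlap in that direction). SMR6 c87836_g1_i1 had 12.4, 13.7 and 11.5 TMM CPM in overexpression 1, 2 and 3, against 5.48, 3.43 and 5.30 TMM CPM in mock 1, 2 and 3. The 3 overexpression libraries lay close together and above the highest mock value, a log2 fold change of 1.40 ± 0.25 (SE, adjusted p = 0.0122 by edgeR with BH). Without overexpression replicate 2 its adjusted edgeR p was 0.0553 and the call was lost.

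The second SMR6 unigene (c84543_g1_i2) was much rarer, at 4.20, 2.71 and 1.84 TMM CPM in overexpression against 0.730, 0.521 and 0.628 TMM CPM in mock. No library of one group reached the other, and the log2 fold change was 2.20 (SE 0.44, edgeR's BH-adjusted p = 0.0189). By edgeR's BH-adjusted p, this call was lost without overexpression replicates 1 and 2 (adjusted p = 0.0769 and 0.0564) and without mock replicates 1 and 3 (adjusted p = 0.0768 and 0.0589). A further SMR6 unigene with too few counts for the test (c52058_g1_i1) had 6, 5 and 0 counts in overexpression 1, 2 and 3, against 0, 0 and 1 in mock. Overexpression 3 thus had no count of it, and the summed counts had a ratio of 10.6 (95% counting interval 1.54 to 455, for counting error only).

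Not all SMR unigenes followed. SMR2-like c83131_g1_i1 and SMR1 c83812_g1_i1 were so named only in their description from the NR protein database, and fall outside the rule. Their log2 fold changes were -0.21 and -0.72 (edgeR's BH-adjusted p = 0.629 and 0.378). At 27.8 FPKM over the 6 libraries, SMR2-like was more abundant than every SMR unigene that met the rule. The most abundant SMR6 (c75498_g1_i1, 20.5 FPKM over the 6 libraries) had 10.1, 9.08 and 17.4 TMM CPM in overexpression and 13.6, 7.60 and 8.80 TMM CPM in mock, so the groups overlapped (log2 fold change 0.28, edgeR's BH-adjusted p = 0.699). SMR5 (c72125_g1_i1), SMR3 (c96271_g4_i1) and SMR14 (c79329_g1_i1) had log2 fold changes of 1.82, 0.93 and 1.32 without passing the test (edgeR's BH-adjusted p = 0.147, 0.213 and 0.263). When the counts of all unigenes matched to the UniProt entry of SMR6 were summed, the log2 fold change was 0.86 and the call was lost (edgeR's BH-adjusted p = 0.0554).

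**Figure D1:**
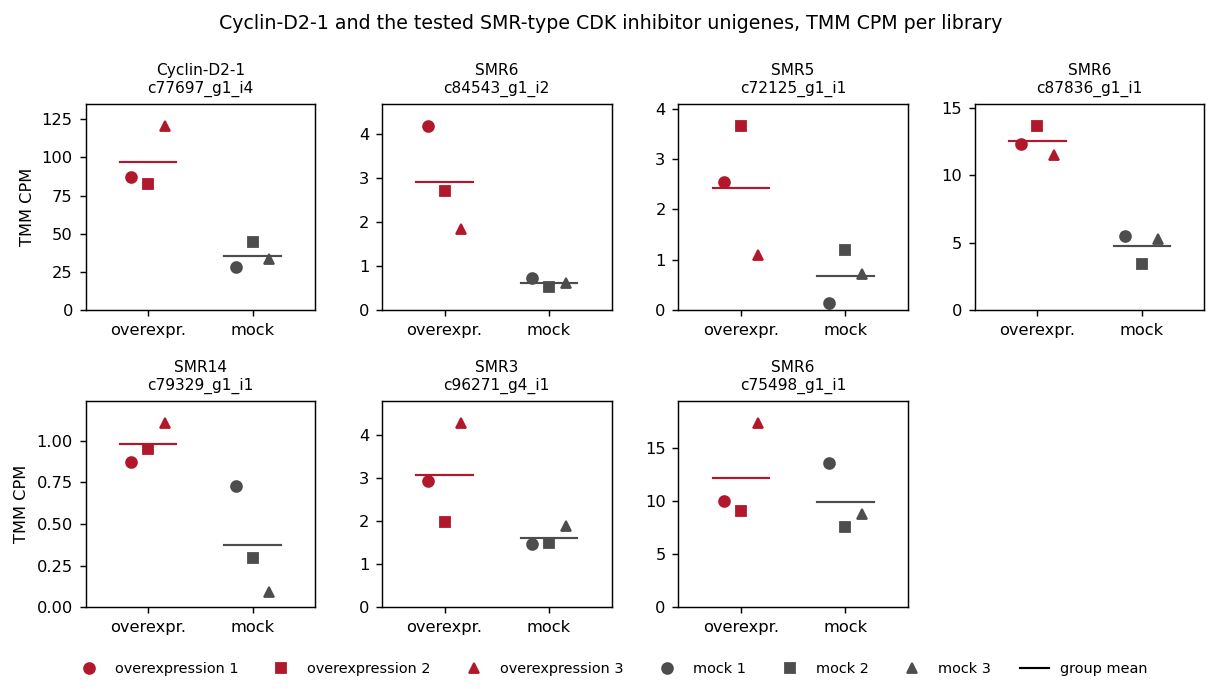
Level in TMM CPM (vertical axis, linear from 0) of cyclin-D2-1 and of the 6 tested SMR inhibitor unigenes in each library, 1 point per library, with overexpression in red at the left and mock in grey at the right of each panel and horizontal bars at the group means. Cyclin-D2-1 and the 2 called SMR6 unigenes have all 3 red points above all 3 grey points, while SMR6 c75498_g1_i1 and SMR5 overlap.

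For the KRP-type inhibitors, the other plant family, no such shift was seen. The median log2 fold change over the 5 tested unigenes was 0.28, and none passed the test. The one with the lowest p, named cyclin-dependent kinase inhibitor 1 (c92655_g1_i3), had 1.82, 0.293 and 1.18 TMM CPM in overexpression against 2.19, 2.68 and 2.15 TMM CPM in mock, without overlap (log2 fold change -1.10, edgeR's BH-adjusted p = 0.296). The most abundant, inhibitor 7 (c90139_g1_i1), overlapped between the groups at 8.27 ± 3.54 TMM CPM in overexpression and 9.61 ± 1.63 TMM CPM in mock (SD, n = 3 each).

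The S-phase genes showed a different picture, in which the overexpression libraries disagreed with each other. All 6 tested MCM unigenes, 1 for each of MCM2 to MCM7, were high in overexpression 1 and 2 and within the mock range in overexpression 3. MCM2 (c96589_g1_i2) had 63.7, 42.0 and 21.3 TMM CPM in overexpression 1, 2 and 3, against 8.25, 22.4 and 13.9 TMM CPM in mock 1, 2 and 3. Its first 2 overexpression libraries lay above every mock library and the last below mock 2. With all 6 libraries the log2 fold change of MCM2 was 1.51 (SE 0.42, edgeR's BH-adjusted p = 0.07), which missed the threshold, while DESeq2 called it. Summed over the 12 MCM unigenes, the level was 353.6, 249.3 and 112.6 TMM CPM in overexpression 1, 2 and 3, against 59.4, 157.4 and 116.1 TMM CPM in mock 1, 2 and 3.

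MCM4 (c97553_g2_i1), the most abundant of the class at 14.4 FPKM over the 6 libraries, had 75.3, 59.8 and 25.2 TMM CPM in overexpression against 13.1, 37.8 and 34.4 TMM CPM in mock. Here overexpression 3 lay below both mock 2 and mock 3, and the log2 fold change was 0.91 (SE 0.43, edgeR's BH-adjusted p = 0.293). For MCM3, MCM5, MCM6 and MCM7 (c98041_g1_i2, c98817_g4_i2, c98306_g1_i2 and c95976_g1_i1) the log2 fold changes were 1.00, 1.19, 1.01 and 1.24, with edgeR's BH-adjusted p-values of 0.239, 0.162, 0.194 and 0.173. The order of the libraries was alike in all 6, with overexpression 1 highest, overexpression 2 next, mock 2 the highest mock and mock 1 the lowest of all 6 libraries. The other 6 MCM unigenes had too few counts to be tested.

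PCNA (c93936_g1_i1) had the same order. It stood at 74.7, 48.0 and 23.7 TMM CPM in overexpression 1, 2 and 3, against 18.7, 25.6 and 25.2 TMM CPM in mock 1, 2 and 3. Overexpression 3 lay between mock 1 and mock 3, and the log2 fold change over all libraries was 1.07 (SE 0.35, edgeR's BH-adjusted p = 0.115). The catalytic subunit of DNA polymerase alpha (c101081_g1_i3), which starts new DNA strands with primase, had 16.6, 12.0 and 5.31 TMM CPM in overexpression against 2.56, 8.19 and 5.57 TMM CPM in mock (log2 fold change 1.05, edgeR's BH-adjusted p = 0.253).

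**Figure D2:**
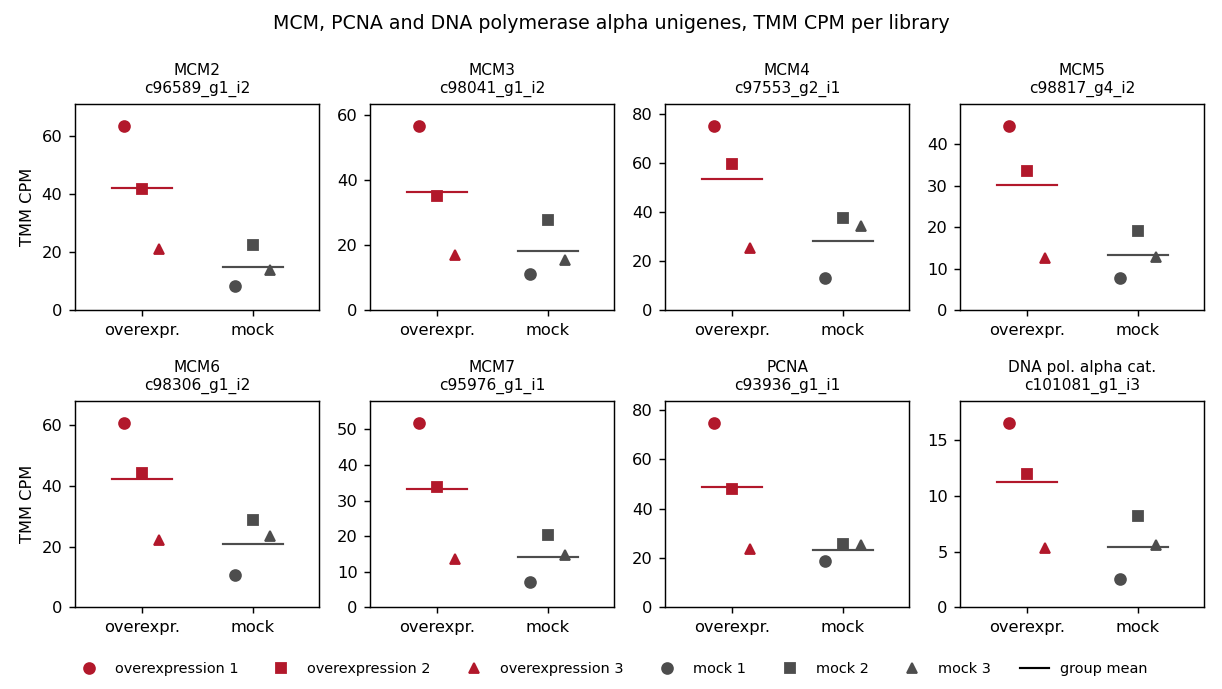
Level in TMM CPM (vertical axis, linear from 0) of MCM2 to MCM7, PCNA and the DNA polymerase alpha catalytic subunit in each library, 1 point per library, overexpression in red at the left, mock in grey at the right, bars at the group means. In every panel overexpression 1 (circle) is highest, overexpression 2 (square) is next and overexpression 3 (triangle) lies within the range of the mock points.

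The other subunits of polymerases alpha, delta and epsilon had smaller log2 fold changes, of -0.30 to 0.31 over 8 tested unigenes, 2 of which shared the split of the overexpression libraries. In the whole class of 9, overexpression 3 was the lowest overexpression library in 8, and the most abundant, the small subunit of polymerase delta (c96557_g1_i1), had 57.5 ± 5.12 TMM CPM in overexpression and 62.8 ± 9.13 TMM CPM in mock (SD, n = 3 each, log2 fold change -0.13, edgeR's BH-adjusted p = 0.773). The 10 tested repair, translesion and organelle polymerases had a median of 0.15 and a range of -0.27 to 0.51. Polymerase kappa (c99216_g3_i6), a translesion enzyme, had 33.0, 32.2 and 27.8 TMM CPM in overexpression against 27.1, 25.2 and 24.2 TMM CPM in mock, a small difference without overlap that did not pass the test (log2 fold change 0.28, edgeR's BH-adjusted p = 0.43). A zeta processivity subunit (c96534_g4_i6) was similar, with a log2 fold change of 0.46 (edgeR's BH-adjusted p = 0.374).

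Among the 38 histone unigenes, 26 were tested, and none passed the test in either direction. The log2 fold change lay above 0 in 24 (48.9% of all tested unigenes), and its median over the 26 was 0.62. At an unadjusted edgeR p under 0.05, 12 were higher and 0 lower (8.54% and 10.3% of all tested unigenes). DESeq2 called 4 higher (1.52% of all unigenes to which it gave an adjusted p). The study lists a histone H2B-like unigene among its most raised genes. That unigene was not among those of this group called in any fit here. The largest log2 fold changes, near or above 2, were those of copies that were rare in mock. Histone H2A.1 c87055_g2_i2 had 32.5, 22.6 and 5.61 TMM CPM in overexpression 1, 2 and 3, against 5.33, 5.44 and 5.12 TMM CPM in mock 1, 2 and 3. The first 2 libraries stood apart, and the last was barely above the mock values, giving a log2 fold change of 1.93 ± 0.50 (SE, adjusted p = 0.0533 by edgeR with BH).

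A second H2A.1 (c79622_g1_i1) had 42.7, 23.9 and 5.38 TMM CPM in overexpression against 4.02, 7.45 and 4.58 TMM CPM in mock (log2 fold change 2.16, edgeR's BH-adjusted p = 0.0649). An H2A unigene (c90219_g1_i2) had 19.2, 11.3 and 2.43 TMM CPM in overexpression against 2.26, 3.43 and 3.32 TMM CPM in mock (log2 fold change 1.86, edgeR's BH-adjusted p = 0.101). In both, overexpression 3 lay within the mock range. The most abundant H2A (c87055_g4_i1, H2A.2) followed the order of the libraries with a smaller spread, at 138, 102 and 52.7 TMM CPM in overexpression against 58.7, 76.5 and 60.1 TMM CPM in mock (log2 fold change 0.58, edgeR's BH-adjusted p = 0.343). The next most abundant, an H2A.2 (c92749_g7_i1) and an H2A.1 (c85908_g1_i1), had log2 fold changes of -0.02 and 0.19.

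H2AX, the form that is phosphorylated at DNA breaks and that also serves as a bulk H2A in plants, gave 4 tested unigenes. The probable H2AXa (c14083_g1_i1) had 21.6, 10.9 and 2.06 TMM CPM in overexpression against 3.36, 2.08 and 2.15 TMM CPM in mock (log2 fold change 2.18, edgeR's BH-adjusted p = 0.0891). The rarer c76628_g1_i1 had 6.02, 3.59 and 0.959 TMM CPM in overexpression against 0.584, 0.819 and 0.718 TMM CPM in mock (log2 fold change 2.30 ± 0.61 SE, edgeR's BH-adjusted p = 0.0595). By contrast, the most abundant H2AX (c76170_g1_i3) was even among the overexpression libraries, at 66.1, 53.8 and 58.3 TMM CPM against 37.5, 39.4 and 44.9 TMM CPM in mock. Its groups did not overlap, but its log2 fold change was 0.55 and its BH-adjusted edgeR p was 0.0984.

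The H2B class had 3 tested unigenes, again of both kinds. H2B.1 (c90768_g5_i2) had 21.8, 15.2 and 1.40 TMM CPM in overexpression 1, 2 and 3, against 2.26, 3.80 and 2.06 TMM CPM in mock, with overexpression 3 the lowest of the 6 libraries (log2 fold change 2.23 ± 0.72 SE, edgeR's BH-adjusted p = 0.116). The most abundant H2B (c90768_g4_i4) had 100.2, 62.8 and 78.7 TMM CPM in overexpression and 65.9, 83.7 and 66.6 TMM CPM in mock, with overlapping groups (log2 fold change 0.16, edgeR's BH-adjusted p = 0.752). An untested H2B.2 (c79719_g1_i1) differed in the other direction, with 0, 0 and 2 counts in overexpression 1, 2 and 3, against 18, 2 and 14 in mock. Mock 2 was level with overexpression 3, and the summed level was 17.7-fold lower in overexpression (95% interval 4.54 to 152, for counting error only). Several H2A and H2B unigenes come from shared assembly clusters (c87055, c90768), so their reads may have been split between near-identical copies, and the level of a single copy is uncertain.

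Summed over H2A, H2AX and H2B, the level was 741.5, 549.2 and 425.1 TMM CPM in overexpression 1, 2 and 3, against 409.4, 469.7 and 390.0 TMM CPM in mock 1, 2 and 3. The sum in overexpression 3 lay between those of mock 1 and mock 2. Linker histone H1 binds the DNA between nucleosomes, and its most abundant unigene (c133924_g1_i1), with 565 FPKM also the most abundant of all 210, had 614, 542 and 396 TMM CPM in overexpression and 499.5, 626 and 490.5 TMM CPM in mock (log2 fold change -0.06, edgeR's BH-adjusted p = 0.93). A less abundant H1 (c95359_g7_i1) had 82.8, 55.2 and 21.8 TMM CPM in overexpression against 20.2, 27.6 and 25.3 TMM CPM in mock, the order seen for PCNA (log2 fold change 1.13 ± 0.38 SE, edgeR's BH-adjusted p = 0.134).

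The 3 tested H2A variants (named variant 1 and 3) had log2 fold changes of 0.39 to 0.69. The most abundant (c86492_g2_i1) had 122, 108 and 121 TMM CPM in overexpression against 97.5, 69.3 and 90.9 TMM CPM in mock, without overlap and with no low value in overexpression 3 (log2 fold change 0.45, edgeR's BH-adjusted p = 0.217). The H4 unigene with the lowest p (c94891_g2_i12) had 58.6, 47.2 and 34.0 TMM CPM in overexpression against 35.1, 29.5 and 34.4 TMM CPM in mock (log2 fold change 0.50, edgeR's BH-adjusted p = 0.245), and the H4 with the highest FPKM (c102013_g1_i1) had a log2 fold change of 0.82 (edgeR's BH-adjusted p = 0.338). Centromeric H3 (c87506_g1_i2), which marks the site of the kinetochore, was at 1.60 ± 0.609 TMM CPM in overexpression and 1.39 ± 0.421 TMM CPM in mock (SD, n = 3 each).

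**Figure D3:**
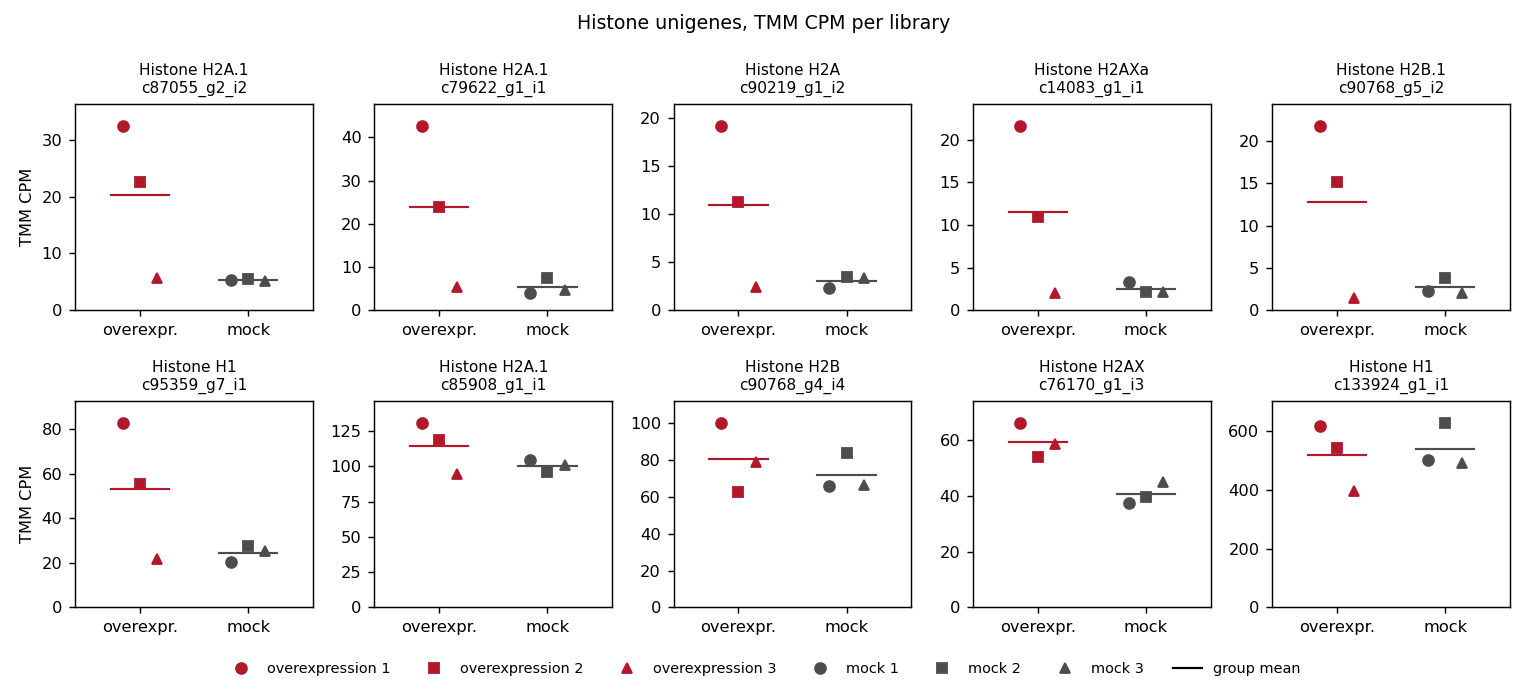
Level in TMM CPM (vertical axis, linear from 0) of 10 histone unigenes in each library, 1 point per library, overexpression in red at the left, mock in grey at the right, bars at the group means. The 6 unigenes from H2A.1 c87055_g2_i2 to H1 c95359_g7_i1 are high in overexpression 1 and 2 (circle and square) and near the mock values in overexpression 3 (triangle), and in the 4 more abundant unigenes after them no library stands apart to that degree.

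The disagreement between the overexpression libraries was counted over all tested unigenes of the group, after it had been seen in single genes. In 34 of the 114 tested unigenes (29.8%), overexpression 1 and 2 both lay above all mock libraries and overexpression 3 did not, against 6.77% of all tested unigenes. They include all 6 MCM unigenes, PCNA, 14 of the 26 tested histones and 3 of the 9 replicative polymerase subunits. The same pattern with overexpression 2 as the odd library held for 4 unigenes (3.36% of all tested unigenes), and with overexpression 1 for 5 (4.45%). Overexpression 3 was the lowest of the 3 overexpression libraries in 71 unigenes (62.3%, against 35.0% of all tested unigenes), and overexpression 1 was the highest of all 6 libraries in 50 (43.9%, against 13.9%). All 3 overexpression libraries lay above all mock libraries in 19 unigenes and below them in 8 (11.3% and 11.5% of all tested unigenes).

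With overexpression replicate 3 left out, edgeR called 19 of 120 tested unigenes higher (15.8%, against 3.0% of all tested unigenes in that fit) and 0 lower (3.86%, or 6.86% in either direction). The 19 comprise 5 of the 7 MCM unigenes tested in that fit, PCNA, 3 H2A, 3 H2AX, 1 H2B, 1 H1, 1 H4, cyclin-A3-1, cyclin-D2-1 and both SMR6 unigenes called in the full comparison. In this fit MCM2 had a log2 fold change of 1.84 (edgeR's BH-adjusted p = 0.0128), PCNA of 1.41 (0.00899), H2A.1 c87055_g2_i2 of 2.38 (0.000949), H2B.1 c90768_g5_i2 of 2.77 (0.00132) and H1 c95359_g7_i1 of 1.51 (0.00546). The fit was singled out after these genes had been seen to be low in overexpression 3. Its calls and p-values therefore restate the split and are no separate support for it. With overexpression replicate 1 or 2 left out instead, edgeR called 2 of 120 and 1 of 117 tested unigenes higher and none lower. All calls in these fits numbered 871 and 762, against 2756 without overexpression replicate 3. Without mock replicates 1, 2 and 3 edgeR called 2 of 117, 8 of 115 and 2 of 120 higher, among 669, 2594 and 1263 calls in all. It called 1 lower, without mock replicate 2, the H2B.2 c79719_g1_i1 that was untested in the full comparison. The number of calls over all unigenes thus varied between these fits as well. With all 6 libraries, DESeq2 called 6 of these S-phase and histone unigenes higher, namely MCM2, PCNA, H1 c95359_g7_i1, H2A.1 c87055_g2_i2, H2A c90219_g1_i2 and H2AX c76628_g1_i1, and edgeR with library size alone called 3 of them, MCM2, H2A.1 c87055_g2_i2 and H2AX c76628_g1_i1. MCM2 was also called by edgeR without mock replicate 2. With 3 libraries a group, it cannot be told which of the overexpression libraries is typical.

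**Figure D4:**
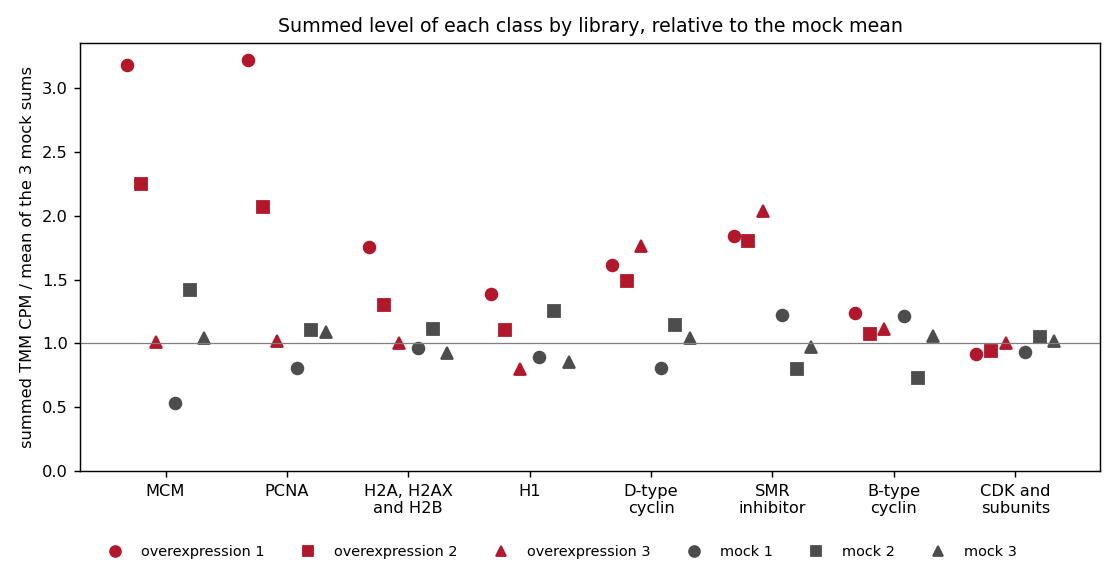
Summed TMM CPM of each class in each library divided by the mean of the 3 mock sums (vertical axis, linear from 0), overexpression in red at the left and mock in grey at the right of each class, with circle, square and triangle for libraries 1, 2 and 3. MCM, PCNA and the H2A, H2AX and H2B sum are above the mock points in overexpression 1 and 2 only, the D-type cyclin and SMR sums are above them in all 3 overexpression libraries, and the B-type cyclin and CDK sums overlap. Cyclin-D2-1 alone makes up 87.0, 82.5 and 121 of the D-type sums of 173.0, 159.6 and 188.9 TMM CPM in overexpression 1, 2 and 3. In mock 1, 2 and 3 it makes up 28.4, 44.5 and 33.4 of 86.8, 122.3 and 111.9 TMM CPM, and the other D-type cyclins did not move together.

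Other values of the same libraries are given here beside this split. The unigene with nearly all counts of the banana WRKY matches (c147189_g1_i1), which is no clean measure of the transgene, had 248, 332 and 267 TMM CPM in overexpression 1, 2 and 3. Its part in the split was not tested. Leaf mesophyll markers (34 unigenes for Rubisco small chains and chlorophyll a-b binding proteins) summed to 10300, 7017 and 5837 TMM CPM in overexpression 1, 2 and 3, against 16290, 28980 and 9101 TMM CPM in mock. Of 23 tested, 5 were called lower and 1 higher in overexpression (2.67% and 1.92% of all tested unigenes). Markers of young growing leaf (21 unigenes, growth-regulating factors and their partners and AINTEGUMENTA) summed to 63.7, 52.0 and 56.9 TMM CPM in overexpression, against 98.8, 97.8 and 107 TMM CPM in mock. Of 6 tested, 1 was called lower and 0 higher. Stomatal lineage markers (18 unigenes) summed to 23.7, 16.1 and 20.8 TMM CPM in overexpression, against 19.0, 26.5 and 23.2 TMM CPM in mock. Of 10 tested, 1 was called lower and 0 higher.

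Unigenes of other organisms differed between the groups as well. Unigenes with a yeast protein match summed to 65.1, 19.0 and 36.9 TMM CPM in overexpression against 992.6, 969.4 and 702.4 TMM CPM in mock, and 110 of 121 tested were called lower (2.67% of all tested unigenes). Those with an *Agrobacterium* nucleotide match summed to 13.4, 13.8 and 11.4 TMM CPM in overexpression against 21.4, 29.5 and 9.97 TMM CPM in mock (2 tested, none called). For *Escherichia* matches the sums were 286.3, 198.8 and 233.9 TMM CPM in overexpression and 31.8, 33.6 and 18.8 TMM CPM in mock, and all 7 tested were called higher (1.92% of all tested unigenes). Vascular markers (14 unigenes for sucrose transport proteins and ATHB-8, 7 tested, none called) summed to 519.3, 555.6 and 812.5 TMM CPM in overexpression 1, 2 and 3, against 1002, 1308 and 777.4 TMM CPM in mock. As with the MCM sum, overexpression 3 lay within the mock range and overexpression 1 and 2 outside it, here on the low side. The part of these marker sums in the results on the S-phase genes was not tested.

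E2F factors bind the promoters of S-phase genes, as activators or, for E2FC in *Arabidopsis*, as a repressor. All 4 unigenes had log2 fold changes above 0 and none passed the test. E2FB (c98648_g1_i1) had 9.82, 8.71 and 8.55 TMM CPM in overexpression against 3.87, 6.55 and 7.18 TMM CPM in mock, without overlap and with overexpression 3 level with the others (log2 fold change 0.62, edgeR's BH-adjusted p = 0.25). E2FA (c92882_g1_i1) had 11.0, 8.57 and 5.83 TMM CPM in overexpression against 5.11, 8.19 and 5.75 TMM CPM in mock (log2 fold change 0.41, edgeR's BH-adjusted p = 0.529). The range was 0.41 to 0.78, with E2FC (c46159_g1_i1) at the upper end.

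Among the A-type cyclins the values differed in size and direction. Putative cyclin-A3-1 (c94412_g2_i4) had 4.36, 4.69 and 0.811 TMM CPM in overexpression 1, 2 and 3, against 0.146, 0.819 and 0.359 TMM CPM in mock, the split seen for the MCM genes at a low level (log2 fold change 2.86 ± 0.73 SE, edgeR's BH-adjusted p = 0.0515). The most abundant A-type cyclin, cyclin-A3-2 (c51453_g1_i2), was at 13.0 ± 0.628 TMM CPM in overexpression and 12.3 ± 2.84 TMM CPM in mock (SD, n = 3 each). Cyclin-A2-1 (c98863_g2_i2) was at 1.50, 0.586 and 0.664 TMM CPM in overexpression against 1.31, 5.29 and 2.42 TMM CPM in mock, a log2 fold change of -1.71 (edgeR's BH-adjusted p = 0.127) with overlap between the groups.

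B-type cyclins drive the entry into mitosis, and none of the 4 tested unigenes passed the test. Cyclin-B1-2 (c84756_g2_i1), with 79.6 FPKM the most abundant cyclin, had 69.8, 61.8 and 60.3 TMM CPM in overexpression and 71.7, 38.1 and 61.7 TMM CPM in mock (log2 fold change 0.16, edgeR's BH-adjusted p = 0.779). Putative cyclin-B3-1 (c82877_g1_i3) had 2.46, 2.34 and 0.295 TMM CPM in overexpression and 0.876, 1.42 and 0.0898 TMM CPM in mock (log2 fold change 1.05, edgeR's BH-adjusted p = 0.55).

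The kinases of the cycle were nearly level. Over the 12 tested CDKs and subunits the log2 fold change ranged from -0.63 to 0.33, around a median of -0.12. Their most abundant unigene, the regulatory subunit 1 (c79291_g1_i2), had 55.7 ± 10.8 TMM CPM in overexpression and 66.6 ± 14.8 TMM CPM in mock (SD, n = 3 each). CDK F-4 (c57246_g2_i1), a kinase that in other species acts outside the core cycle, had 16.1, 15.0 and 16.4 TMM CPM in overexpression against 18.0, 29.0 and 26.5 TMM CPM in mock, without overlap (log2 fold change -0.63, edgeR's BH-adjusted p = 0.133). The mitosis-specific CDK B2-1 (c70714_g1_i1) had too few counts for the test, with 25 over the overexpression libraries and 32 over the mock libraries.

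Aurora-1 (c54996_g1_i2), a mitotic kinase, had 26.3, 30.3 and 21.0 TMM CPM in overexpression and 31.2, 18.3 and 30.7 TMM CPM in mock (log2 fold change -0.05, edgeR's BH-adjusted p = 0.949). Aurora-3 (c91060_g2_i1) stood at 1.18 ± 0.911 TMM CPM in overexpression and 0.724 ± 0.275 TMM CPM in mock (SD, n = 3 each). The kinetochore protein nuf2 (c97911_g5_i1) had 46.2, 46.1 and 49.3 TMM CPM in overexpression against 31.0, 44.8 and 39.0 TMM CPM in mock, just without overlap (log2 fold change 0.30, edgeR's BH-adjusted p = 0.428). Spindle and kinetochore-associated protein 1 (c123883_g1_i1) overlapped between the groups (log2 fold change 0.60, edgeR's BH-adjusted p = 0.389). No B-type cyclin, aurora or kinetochore unigene was called. Overexpression 1 and 2 lay above all mock libraries and overexpression 3 did not in 3 of the 11 tested (6.77% of all tested unigenes). These were cyclin-B3-1 and the spindle and kinetochore-associated proteins 1 and 2. Protein 2 (c54735_g1_i2) had 6.655, 6.371 and 3.909 TMM CPM in overexpression 1, 2 and 3. In mock 1, 2 and 3 it had 3.651, 3.649 and 4.848 TMM CPM (log2 fold change 0.48, edgeR's BH-adjusted p = 0.448).

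**Figure D5:**
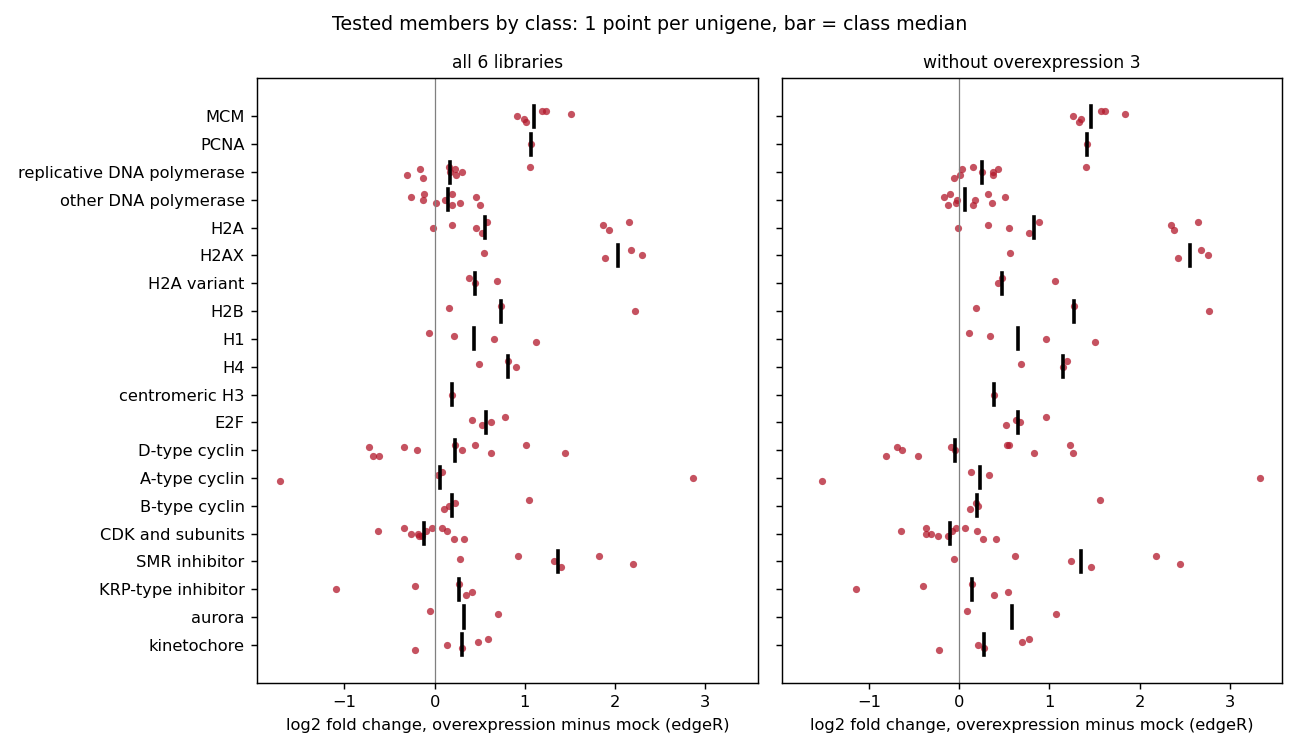
Log2 fold change of overexpression minus mock by edgeR (horizontal axis) for every tested unigene by class, 1 point per unigene with a vertical bar at the class median, with all 6 libraries in the left panel and without overexpression replicate 3 in the right panel. The MCM and PCNA points, 3 of the 4 H2AX points and part of the H2A points lie near or above 1 in the left panel and further right in the right panel, while CDKs, most polymerases and kinetochore proteins stay near 0 in both.

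Levels between unigenes were compared per length with the authors' FPKM. Abundant histones led, with 565 and 183 FPKM for a pair of H1 unigenes and 151 FPKM for H2A.2 c87055_g4_i1 as means of the 6 libraries. Of the called unigenes, cyclin-D2-1 was at rank 23 of 210 (32.1 FPKM) and the called SMR6 unigenes at ranks 48 (12.3 FPKM) and 86 (3.31 FPKM). PCNA ranked 27 (27.8 FPKM), and the tested MCM unigenes had 7.36 to 14.4 FPKM. The median over all 210 was 1.66 FPKM.

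Of the 42 reverse transcriptases, 26 had fewer than 10 counts over the 6 libraries and 6 were tested, with none called. The one with the lowest p (c96687_g3_i5) had 3.25, 5.93 and 7.01 TMM CPM in overexpression against 1.53, 3.80 and 1.71 TMM CPM in mock (log2 fold change 1.19, edgeR's BH-adjusted p = 0.152), with overexpression 3 the highest. Another with too few counts for the test (c92992_g5_i1) had 0, 2 and 0 counts in overexpression, against 8, 8 and 10 in mock, 13.5-fold lower over the sums (95% interval 3.39 to 118, for counting error only). Without these and the name-only matches the calls were the same 3 unigenes of 105 tested, and the median log2 fold change was 0.30.

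Other replication and division genes that the rule leaves out were taken from a list of names (284 unigenes, 137 tested). In it 2 were called higher and 1 lower (1.92% and 2.67% of all tested unigenes), and the median log2 fold change was 0.08. None of the list was called without overexpression replicate 1, without overexpression replicate 2 or without mock replicate 1, and 1 was called without mock replicate 3, with limma-voom and with the replicate block. The mitotic checkpoint kinase BUB1 (c99308_g1_i2) had 6.58, 6.88 and 3.76 TMM CPM in overexpression against 2.19, 1.86 and 2.42 TMM CPM in mock (log2 fold change 1.41 ± 0.33 SE, edgeR's BH-adjusted p = 0.0363). Replication protein A 14 kDa subunit B (c83196_g1_i2), part of the complex that holds single-stranded DNA, had 9.51, 4.76 and 1.84 TMM CPM in overexpression against 0.438, 1.64 and 0.539 TMM CPM in mock (log2 fold change 2.59 ± 0.65 SE, edgeR's BH-adjusted p = 0.0492). In both, every overexpression library was above every mock library, with overexpression 3 the lowest of its group.

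The gene called lower matched DNA topoisomerase 2-binding protein 1-A (c97485_g1_i3), whose animal namesake acts in replication and the damage checkpoint. It had 6.58, 6.74 and 9.96 TMM CPM in overexpression against 20.7, 16.4 and 14.0 TMM CPM in mock, without overlap (log2 fold change -1.14 ± 0.25 SE, edgeR's BH-adjusted p = 0.0277). The split between overexpression libraries recurred in this list, in 33 of 137 tested unigenes (24.1%, against 6.77% of all tested unigenes). For example, the large subunit of ribonucleotide reductase (c99799_g1_i1), which makes the building blocks of DNA, had 94.0, 62.7 and 19.5 TMM CPM in overexpression against 18.9, 34.7 and 27.8 TMM CPM in mock. Replication protein A 70 kDa subunit B (c94696_g1_i2) had 40.4, 23.7 and 5.24 TMM CPM in overexpression against 4.02, 7.89 and 6.46 TMM CPM in mock. Without overexpression replicate 3, 13 of 147 tested genes of the list were called higher (8.84%, against 3.0% of all tested unigenes in that fit) and 1 lower (3.86% of all tested unigenes in that fit). Another 14 tested unigenes (of 96) matched the rule by their NR description but not by their UniProt name. The split held for 0 of the 14 (6.77% of all tested unigenes). They include reverse transcriptases and hold no MCM, PCNA, H2A, H2AX or H2B unigene, so they cannot speak to the split in those classes. Of the 14 none was called with all 6 libraries (4.59% of all tested unigenes), and the median log2 fold change was 0.01.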

How the data were processed

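Leaf RNA of 6 libraries (3 overexpression, 3 mock) was analysed. The authors trimmed reads with Trimmomatic, assembled them de novo (Trinity), clustered the transcripts (CD-HIT-EST), mapped reads with Bowtie2 and estimated abundance with RSEM. The deposited counts are unnormalized read pairs per unigene. The RSEM expected counts deposited for each library equal them, with 0 differing values. The deposited TPM values were not used, and the authors' FPKM served only for levels between unigenes. Strand use in counting is not given in the sources used here, and reads of near-identical copies may be split. Gene names and species are those of the deposited annotation.

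Counts were tested with glmQLFit and glmQLFTest of edgeR 4.0.16 under R 4.3.3, after filterByExpr and TMM scaling, with an SE derived from the F statistic. The fits were tested on simulated data. Alternatives were DESeq2 1.42.0, limma-voom (limma 3.58.1), glmTreat, other scalings and filters, a replicate block, each library left out and counts summed per UniProt entry. Total counts ranged from 12031310 to 14285138. Ratios for unigenes with few counts carry 95% exact binomial intervals.

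The genes, lists and tests were chosen with earlier results of these data known. Named are the called unigenes and, per class, those with the highest mean FPKM and the lowest p (37 in all). Further names, the split between overexpression libraries, the membership alternatives and the count of library orders were chosen after seeing values. Replicates are separate plant pools per the study's methods.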

Additional observations from a re-analysis of the deposited data

How the results depend on the processing

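The 3 called unigenes were called in all other full-library fits except glmTreat, which tests against a fold of 2 and called 0 members (382 of all unigenes and 0 of the other replication and division genes), and, for the SMR6 pair, the summed entries. Members called higher numbered 10 with DESeq2, 7 with library size alone and 21 with no filter, which also called 3 lower. All unigenes called numbered 1706, against 2562 with DESeq2 and 4201 with no filter. The 3 calls of the other replication and division genes became 7 with DESeq2, 13 with no filter and 1 each with limma-voom and the replicate block. With single libraries left out, all calls ranged from 669 to 2756, members called higher from 1 to 19, members called lower from 0 to 1, the other list from 0 to 14, and the median log2 fold change from 0.25 to 0.34. That median was 0.42 with library size alone (which moved the median of all unigenes to 0.11), 0.23 with summed entries and 0.25 with unigenes added that matched by their NR description alone, chosen after seeing the data. The replicate block called 4 members higher, adding cyclin-A3-1. Deviations from the group mean correlated at -0.11, -0.13 and -0.09 between same-numbered libraries. Between differently numbered ones they correlated at -0.13 to 0.25. Deviations around a mean of 3 libraries must balance out, so these values cannot decide whether the numbers pair the libraries.

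Signs of these named unigenes turned, none of them called. H1 c133924_g1_i1 had a log2 fold change of 0.0602 with library size alone and 0.0201 summed, and -0.20 to 0.11 with a library left out. Aurora-1 c54996_g1_i2 had 0.0735 with library size alone, and inhibitor 1 c92655_g1_i3 had 0.0461 summed. With a library left out the ranges were -0.264 to 0.0888 for Aurora-1, -0.0275 to 0.327 for H2B c90768_g4_i4, -0.15 to 0.42 for centromeric H3 c87506_g1_i2, -0.0892 to 0.247 for cyclin-A3-2 c51453_g1_i2, -0.0672 to 0.348 for cyclin-B1-2 c84756_g2_i1, -0.41 to 0.12 for inhibitor 7 c90139_g1_i1, -0.0558 to 0.562 for SMR6 c75498_g1_i1 and -0.11 to 1.07 for Aurora-3 c91060_g2_i1. The causes were not tested. With 3 libraries a group each fit assumes the same spread in both groups. The main comparison tested 114 members, and the fits with DESeq2 and with no filter took in 203. Unigenes that failed the count filter were left out of the main comparison. Some of them held well over 10 counts, such as CDK B2-1 c70714_g1_i1 with 25 over the overexpression and 32 over the mock libraries.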
